A study of Homo sapiens with 4 samples.

Results

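Small nucleolar RNA host genes (SNHG genes) were examined in the RNA of A549 tumors. The members were chosen by name, as every gene listed as SNHG followed by a number, and 28 of the 38137 genes in the count tables met that rule. A total of 26 of them reached 20 reads or more on average across the 4 libraries and were compared, among 19393 genes that passed the same minimum. The 2 below it were SNHG27, with 0 reads in every library, and SNHG18, with 1 read in the combination library and 0 in the others. A count of 0 allows up to 3 reads, or 0.084 to 0.0916 counts scaled to library size (CPM) across the libraries.

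A549 is a human lung adenocarcinoma cell line, and the tumors were grown in the flank of 6-week-old BALB/c athymic nude mice, which lack T cells but keep other immune and stromal cells. The 4 groups were a control, aerobic exercise alone, radiation alone, and both together, with 1 library each and 5 mice assigned to a group. Exercised mice ran on a treadmill for 30 min at 8 m/min, 3 times per week for 2 weeks. Radiation was an X-ray dose of 2 Gy per session directed at the tumor, also 3 times per week for 2 weeks. In the combination, exercise came before radiation on the same day. Whether a library held 1 tumor or several was not given in the sources used here. No group has a replicate library, so every difference below is a ratio of single libraries with no p-value, and its 95% interval is an exact Clopper-Pearson interval that covers counting error only. The comparisons against control share the control library, and those of the combination share the combination library.

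Small nucleolar RNAs (snoRNAs) guide the chemical modification of ribosomal RNA, and in human cells most of them are cut from introns. An SNHG gene carries such introns, while its spliced exons code for no known conserved protein and are often degraded by nonsense-mediated decay after brief contact with ribosomes. Many host genes begin with a terminal oligopyrimidine (TOP) tract, a C followed by a run of C and T, which they share with ribosomal protein genes and which ties translation of the RNA to growth signals through mTOR and LARP1. Several SNHG RNAs are studied in lung and other cancers because they are abundant in growing cells.

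The start sites are shown first because the TOP tract is the sequence feature the family is known for. A start window from RefSeq (GRCh38.p14) was matched for 24 members, and no window was matched for SNHG6, SNHG9, SNHG15 and SNHG25. A tract was scored where a C within 5 bases of the annotated start was followed by at least 4 bases that were all C or T. It was found in 11 of the 24 members, or 45.8%, and in 7408 of all 35116 windows, or 21.1%. Each line gives 10 bases before and 20 bases from the annotated start, read on the strand of the gene, with the tract in capitals.
SNHG4: ctcccggctgCCCTTTCCCCTCCggcctct
SNHG12: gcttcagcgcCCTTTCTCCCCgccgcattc
SNHG32: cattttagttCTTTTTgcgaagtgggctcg
SNHG5: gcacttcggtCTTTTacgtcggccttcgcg
SNHG19: ccgcccctgtCTTTTCggggtcgagtccga
SNHG8: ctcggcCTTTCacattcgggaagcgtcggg
SNHG16: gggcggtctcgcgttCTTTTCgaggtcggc
SNHG1: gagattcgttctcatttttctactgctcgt
SNHG29: ccttttgtgaggattgggatattccgactc

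The tract began at the annotated start itself in SNHG4 (chr5:139274091-139274120, plus strand), SNHG12 (chr1:28581854-28581883, minus strand), SNHG32 (chr6:31834906-31834935, plus strand), SNHG5 (chr6:85678714-85678743, minus strand) and SNHG19 (chr16:2155339-2155368, minus strand). It began 4 bases before the start in SNHG8 (chr4:118278752-118278781, plus strand) and 5 bases after it in SNHG16 (chr17:76557754-76557783, plus strand). SNHG4 had the longest of these runs, with 13 bases, and SNHG12 had 11. SNHG1 (chr11:62855866-62855895, minus strand) and SNHG29 (chr17:16438977-16439006, plus strand) are shown as abundant members that did not meet the rule at the annotated start. A few bases of shift in an annotated start would move a member in or out of this count. The E-box CACGTG, the site bound by MYC and related factors, was read on both strands of the 300-base window. It was present in SNHG7 and SNHG30, 2 of 24 members or 8.33%, against 2548 windows or 7.26% overall.

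Reads assigned to genes numbered from 33432637 in the combination library to 35408705 in the radiation library. The 8 A549 epithelial markers, among them the keratins KRT8 and KRT18, were present in every library, with summed levels of 13400 CPM in control, 14000 under exercise, 13800 under radiation and 14800 in the combination. Markers of other cells moved with irradiation. The 8 skeletal muscle genes summed to 2.8 CPM in control, 4.28 under exercise, 36.5 under radiation and 45.2 in the combination, with MYH1, MYH2, MYH7 and TNNT3 at 0 reads in control. The 7 fibroblast genes summed to 328, 335, 215 and 186 CPM in the same order, and 4 endothelial genes to 19.4, 15.1, 10.4 and 6.41 CPM. The 6 macrophage and neutrophil genes summed to 365, 354, 424 and 487 CPM, with S100A8 at 0 reads throughout. CSF1R, the largest of these, went the other way, at 278, 267, 239 and 251 CPM. CD68 stood at 44.3, 44.6, 101 and 110 CPM and LYZ at 41.8, 40.9, 81.8 and 124 CPM. Reads were aligned to the human genome, host and tumor reads of shared sequence cannot be told apart, and the part of these shifts in the SNHG values was not tested. Lower RNA per cell and fewer cells that express a gene cannot be told apart in such bulk RNA.

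The SNHG genes spanned a wide range of read abundance. SNHG14 and SNHG29 held the most reads. SNHG14, the long imprinted transcript of 15q11-q13 that carries the SNORD115 and SNORD116 clusters and runs antisense to UBE3A, stood at 472 CPM in control, 450 under exercise, 504 under radiation and 438 in the combination. Of the 83 small RNA genes listed within SNHG14, 28 had any reads, and every SNORD115 gene had 0 in each library. SNHG29, host of SNORD49A, SNORD49B and SNORD65, stood at 504, 452, 405 and 412 CPM. The control library held the highest SNHG29 value, and the 2 irradiated libraries held the lowest.

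The next 3 members by reads were SNHG16, SNHG1 and SNHG32. SNHG16, host of the SNORD1 family, was at 74.6 CPM in control, 70.0 under exercise, 74.4 under radiation and 83.0 in the combination, so that the combination library was the highest. SNHG1, host of 8 box C/D snoRNAs, was at 62.3, 72.3, 53.2 and 50.3 CPM, under exercise highest and the irradiated libraries lowest. SNHG32, host of SNORD48 and SNORD52, was at 57.8, 51.3, 51.8 and 50.9 CPM. Only the control library stood apart there.

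Of the remaining 5 among the 10 most read, SNHG6, host of SNORD87, was at 42.1 CPM in control, 40.5 under exercise, 34.7 under radiation and 32.9 in the combination. SNHG3, host of the SNORA73 pair that takes part in early cleavage of the ribosomal RNA precursor, was at 36.0, 40.0, 28.4 and 32.4 CPM. Both had their lower levels in the irradiated libraries. SNHG7, host of SNORA17A and SNORA17B, had 1238, 1219, 1043 and 1114 reads in the same order. SNHG17 was at 29.2, 28.7, 25.2 and 24.9 CPM. SNHG22 ran the other way, at 24.7 CPM in control, 26.5 under exercise, 28.8 under radiation and 28.2 in the combination.

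**Figure D1:**
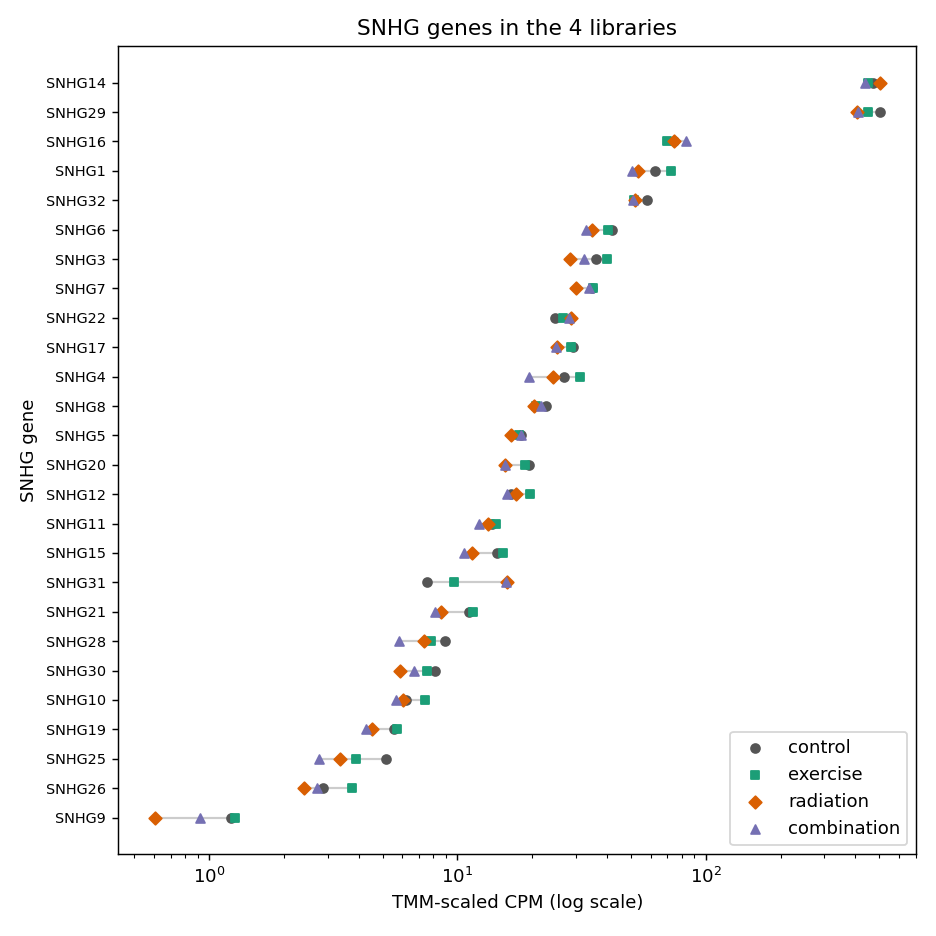
Level of the 26 compared SNHG genes, in TMM-scaled CPM on a log axis, with 1 point for each library and genes ordered by their mean. SNHG14 and SNHG29 lie above 400 CPM in all 4 libraries, most irradiated points lie to the left of control, and SNHG31 is the member with its irradiated points far to the right.

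Per length, the order was different. The FPKM values divide the reads by the whole gene span, introns included, so a host with long introns ranks low. SNHG8, host of SNORA24, had the highest FPKM of the family, from 18.9 to 22.1 over the libraries, above every other member in each one. SNHG1 followed at 12.6 to 18.6 and SNHG29 at 12.6 to 16.4, and these ranges overlapped. SNHG14, spread over 595855 bases, had 0.72 to 0.831 FPKM despite its many reads. For SNHG32 the FPKM implied a length 5.0 times its span in the annotation used here, and its per-length rank was left aside.

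Radiation alone went with modestly lower levels in most of the family. Against control, 22 of 26 SNHG genes had a lower CPM and 4 a higher one, and the median log2 ratio was -0.22, a median fold of 0.86. Over all compared genes, 49.9% were lower. The counting interval lay wholly below control in 16 members and wholly above it in 3, beside 22.8% and 24.1% of all compared genes. The combination was similar against the same control library, with 23 lower and 3 higher, a median log2 ratio of -0.20, and 52.2% of all genes lower. Exercise alone was balanced, with 14 higher and 12 lower, a median of 0.03 and single-gene values from -0.40 to 0.38, beside 49.6% of all genes lower. In the combination the interval lay wholly below control in 15 members and above it in 3, beside 26.6% and 25.7% of genes. Under exercise these were 5 and 5, beside 17.9% and 20.2%.

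Irradiation is shared by 2 of the libraries. In 18 of the 26 members both irradiated libraries lay below both others, a pattern met by 27.6% of all compared genes. The 18 were SNHG1, SNHG3, SNHG4, SNHG6, SNHG7, SNHG9, SNHG10, SNHG11, SNHG15, SNHG17, SNHG19, SNHG20, SNHG21, SNHG25, SNHG26, SNHG28, SNHG29 and SNHG30. In 2 members, SNHG22 and SNHG31, both irradiated libraries lay above both others, a pattern met by 26.2% of genes. For exercise the like counts were 2 members below, SNHG14 and SNHG32, beside 13.2% of genes, and 0 members above, beside 11.6% of genes.

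**Figure D2:**
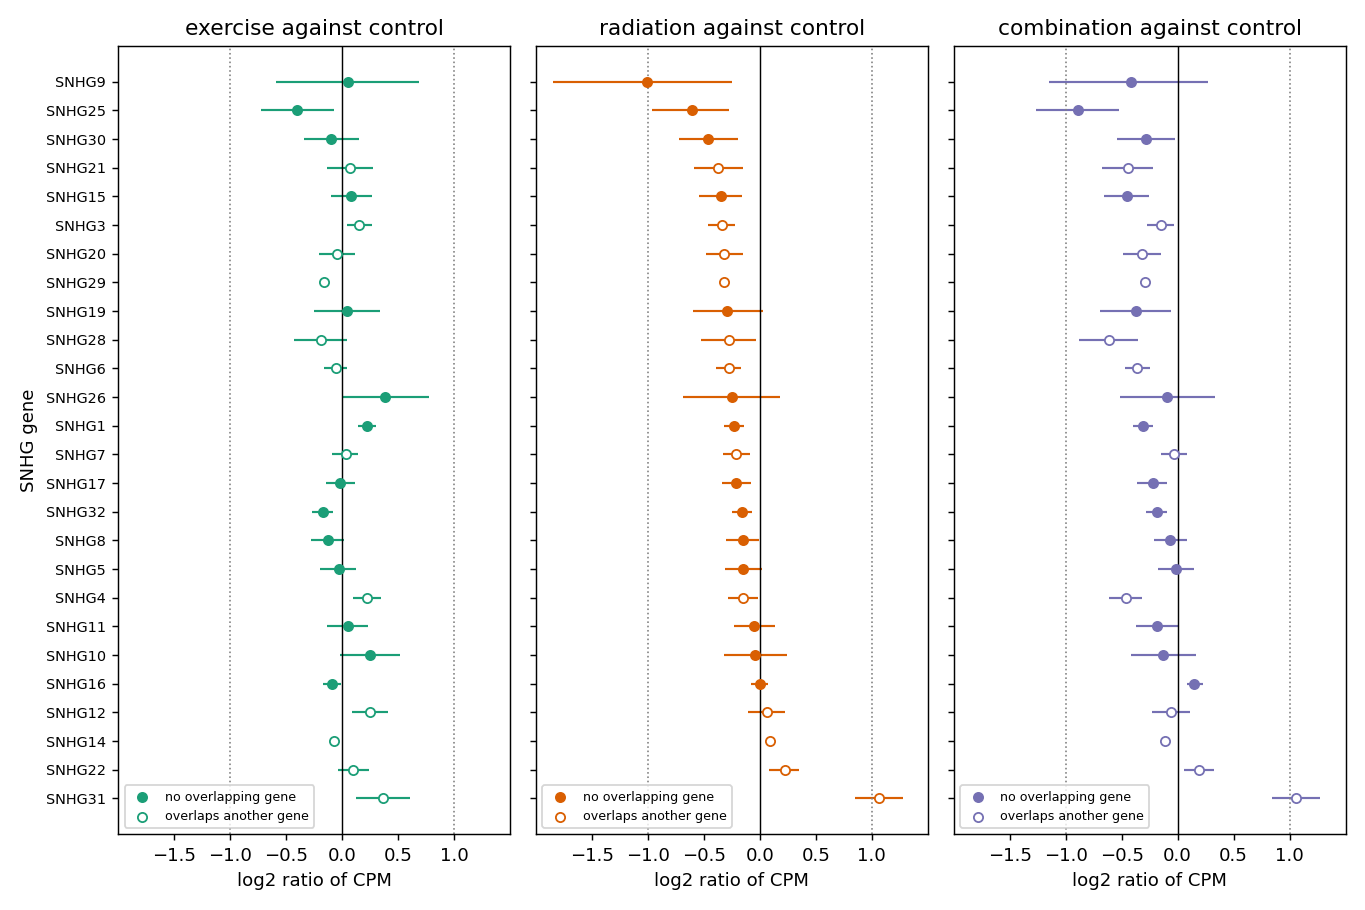
Log2 ratio of CPM for each of the 26 SNHG genes under exercise, radiation and the combination, each against the shared control library. Lines are 95% intervals for counting error, dotted lines mark 2-fold, and open points mark the 12 members that overlap another gene; with radiation 22 points lie left of 0, and SNHG31 is the only one beyond 2-fold to the right.

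Few members were past a fold threshold. With radiation against control, 1 member was at least 2-fold higher (SNHG31) beside 1.89% of all compared genes, and 1 was at least 2-fold lower (SNHG9) beside 0.897%. At 1.5-fold there were 1 higher beside 5.79% and 2 lower beside 4.35%, the added one being SNHG25. In the combination against control, 1 was at least 2-fold higher (SNHG31) beside 2.27% and 0 were 2-fold lower beside 1.77%. At 1.5-fold there were 1 higher beside 6.13% and 2 lower (SNHG25 and SNHG28) beside 6.54%. Under exercise against control, 0 members were past either threshold in either direction, beside 0.83% of genes 2-fold higher, 0.701% 2-fold lower, 3.84% 1.5-fold higher and 3.21% 1.5-fold lower. With 26 members, counts this small are near these background shares.

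Since the counts are taken over gene spans, overlapping genes can share reads. The libraries were made with a stranded kit, but the strand setting of the counting was not given. Genes lying wholly inside another gene were compared with it. On the opposite strand, the inner count did not exceed the outer count in any library for 857 of 895 pairs, or 95.8%. On the same strand, this held for 1015 of 1042 pairs, or 97.4%, a group that can include pairs with neither strand recorded. These shares do not show whether reads were shared, since a gene inside a longer one can hold fewer reads without sharing. With the strand setting unknown, reads of such a pair cannot be told apart here. A total of 12 compared members overlap a gene other than a small RNA, and 14 do not.

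The 14 members without such an overlap were read on their own. With radiation, 14 of the 14 were below control, SNHG16 by the least at 0.998-fold, with a median log2 ratio of -0.22. The counting intervals of SNHG5, SNHG10, SNHG11, SNHG16, SNHG19 and SNHG26 included no difference there. In the combination those of SNHG5, SNHG8, SNHG9, SNHG10, SNHG11 and SNHG26 did. In the combination 13 of the 14 were below control, with a median of -0.20, SNHG16 being the exception. Under exercise 7 were above and 7 below, with a median of 0.01. The count with radiation was 14 under each of the other scalings, and the count in the combination was 12 to 13. With hosted small RNA reads also taken off, SNHG25 had too few reads, and 12 of the remaining 13 were below control with radiation (SNHG10 at 0.04 was not) and 11 of 13 in the combination (SNHG5 at 0.01 and SNHG16 at 0.16 were not). In 10 of the 14, both irradiated libraries lay below both others, beside 27.6% of all compared genes.

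Among these, SNHG15, host of SNORA9 and a short-lived stress-responsive RNA, had 518 reads in control, 530 under exercise, 395 under radiation and 347 in the combination. The irradiated libraries lay below both others, with folds against control of 0.783 (95% interval 0.685 to 0.894) with radiation and 0.731 (0.636 to 0.839) in the combination. SNHG1 had 2224, 2498, 1851 and 1646 reads. Its fold against control was 1.16 (1.10 to 1.23) under exercise, 0.855 (0.803 to 0.909) with radiation and 0.807 (0.757 to 0.861) in the combination. The exercise library was above control and the irradiated ones below it, in each case by more than counting error.

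SNHG5, host of SNORD50A and SNORD50B, differed little, with 648 reads in control, 612 under exercise, 570 under radiation and 589 in the combination, and log2 ratios of -0.03, -0.15 and -0.01 against control. SNHG8 was alike, with 812, 716, 711 and 711 reads and log2 ratios of -0.13, -0.15 and -0.07. SNHG16 had 2663, 2417, 2589 and 2719 reads. It was 0.998-fold of control with radiation (0.945 to 1.05) and 1.11-fold in the combination (1.06 to 1.17).

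The remaining members of the 14 had log2 ratios with radiation of -0.46 for SNHG30, -0.29 for SNHG19, -0.25 for SNHG26, -0.21 for SNHG17, -0.16 for SNHG32, -0.05 for SNHG11 and -0.04 for SNHG10. SNHG9 and SNHG25 had the lowest ratios of all and rest on few or on shared reads. SNHG9, whose hosted RNA is SNORA78, had 44 reads in control, 44 under exercise, 21 under radiation and 30 in the combination. Its fold with radiation was 0.496, with an interval from 0.277 to 0.842. SNHG25 spans 340 bases on chromosome 17 and had 184, 135, 117 and 91 reads, with folds of 0.654 (0.513 to 0.828) with radiation and 0.541 (0.415 to 0.697) in the combination.

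Nearly all SNHG25 reads were those of the snoRNA inside it. SNORD104 was counted at 181 reads in control, 133 under exercise, 112 under radiation and 90 in the combination, from 95.7% to 98.9% of the host count. Without them the host kept 1 to 5 reads per library, too few for a comparison. The SNHG25 values therefore describe the SNORD104 interval.

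SNHG31 was the member with the largest ratio, and it overlaps another gene. It lies at chr2:214810229-214963605 on the plus strand (GRCh38) and shares 32064 bases with ABCA12, a lipid transporter of keratinocytes, on the minus strand. SNHG31 stood at 7.56 CPM in control, 9.72 under exercise, 15.8 under radiation and 15.7 in the combination, from 270 reads in control. Its fold against control was 2.09 (1.80 to 2.42) with radiation and 2.08 (1.79 to 2.42) in the combination, with both irradiated libraries above both others.

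ABCA12 differed by more. It had 98 reads in control, 131 under exercise, 684 under radiation and 562 in the combination, log2 ratios of 0.46, 2.83 and 2.64 against control. The ABCA12 count was 0.363 to 0.39 of the SNHG31 count in the unirradiated libraries and 1.09 to 1.25 of it in the irradiated ones. How many of the added SNHG31 reads lie in the shared stretch was not tested, since the files hold counts per gene and no read positions.

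**Figure D3:**
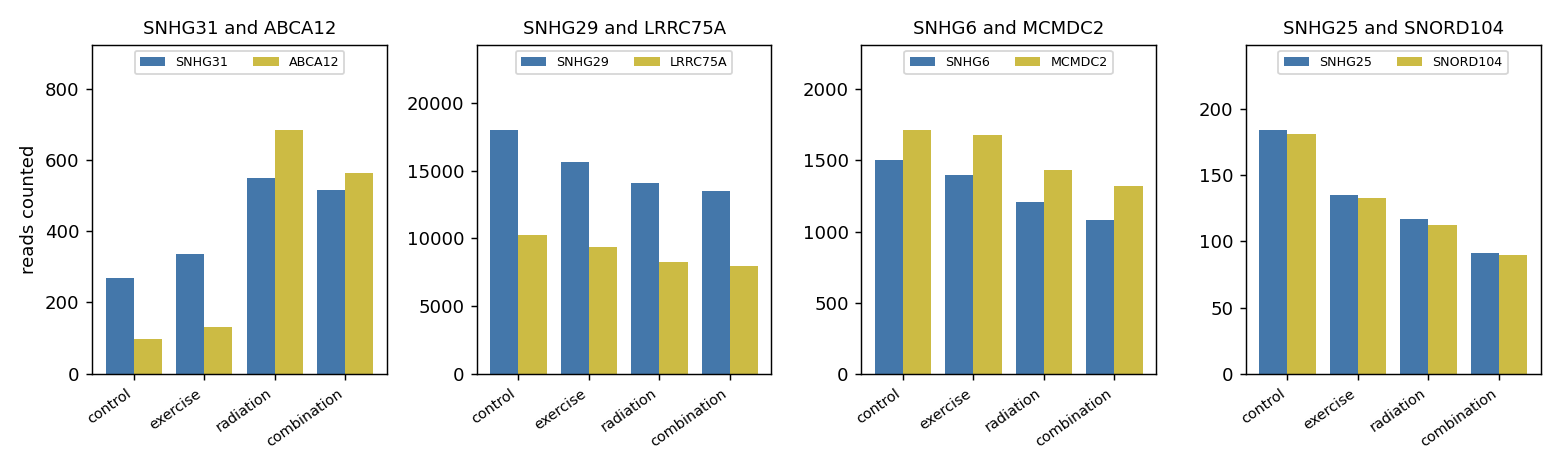
Reads counted per library for 3 SNHG genes and the opposite-strand gene each overlaps, and for SNHG25 with the snoRNA inside it; bars start at 0 and each panel has its own scale. ABCA12 climbs past SNHG31 in the irradiated libraries, LRRC75A and MCMDC2 keep a near-constant proportion to SNHG29 and SNHG6, and the SNHG25 and SNORD104 bars are almost equal.

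Some other overlapping pairs kept near-constant proportions. SNHG29 shares 29072 bases with LRRC75A on the opposite strand, which had 10264 reads in control, 9352 under exercise, 8261 under radiation and 7923 in the combination, 0.57 to 0.599 of the SNHG29 count. SNHG29 itself had 17997, 15612, 14089 and 13492 reads, log2 ratios of -0.16, -0.32 and -0.29 against control. SNHG6 lies within MCMDC2, a gene of meiotic recombination, on the opposite strand, and MCMDC2 was counted at 1.14 to 1.22 times SNHG6 in each library. Such proportions are those of shared reads or of parallel levels, which cannot be told apart from these counts.

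SNHG3 shares 4850 bases with RCC1, the nuclear exchange factor for Ran, on the same strand, and RCC1 was counted at 2.49 to 2.65 times SNHG3. SNHG3 had 1285 reads in control, 1383 under exercise, 986 under radiation and 1060 in the combination, log2 ratios of 0.15, -0.34 and -0.15. SNHG4, host of SNORA74A, lies within MATR3, a nuclear matrix RNA-binding protein gene, on the same strand. It had 957, 1077, 841 and 637 reads, and MATR3 was counted at 8.17, 7.47, 8.18 and 10.8 times that number. The proportion stood apart in the combination library, where SNHG4 was lowest.

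SNHG28, in which no small RNA gene was listed, shares stretches with SLAMF8, VSIG8 and LOC107985216. It had 319 reads in control, 270 under exercise, 256 under radiation and 191 in the combination, and its fold in the combination was 0.653 (0.543 to 0.784). All 3 treated libraries were below control. SLAMF8, a gene of myeloid cells on the opposite strand, had 145, 100, 107 and 99 reads. Proportions to SNHG28 were not constant, at 0.473, 0.489, 0.629 and 0.644 for VSIG8 and 1.36, 1.41, 1.93 and 2.15 for LOC107985216.

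SNHG14 holds SNRPN and SNURF on its own strand, and SNRPN alone was counted at 9138 reads in control, 8832 under exercise, 8754 under radiation and 7944 in the combination, from 0.499 to 0.568 of the SNHG14 count. The SNHG14 log2 ratios against control were -0.07, 0.09 and -0.11. SNHG22 shares 28271 bases with the opposite-strand gene MYO5B, a motor of membrane recycling, which had log2 ratios of 0.18, 0.24 and 0.24, beside 0.10, 0.22 and 0.19 for SNHG22. SNHG20 overlaps SEC14L1 and SNHG21 overlaps FSD2, and their log2 ratios with radiation were -0.32 and -0.37. SNHG7 and SNHG12 overlap DIPK1B and TRNAU1AP by only 149 and 8 bases, and their log2 ratios with radiation were -0.21 and 0.06.

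The combination lay close to radiation alone over the family. In the combination against radiation alone, 9 members were higher and 17 were lower, and the median log2 ratio was -0.03, beside 49.8% of all genes lower. No member was 2-fold higher or 2-fold lower (0 and 0, beside 0.418% and 0.887% of genes). At 1.5-fold, 1 member was higher, SNHG9, at 30 against 21 reads and a fold of 1.51 (0.84 to 2.79), beside 2.31% of genes, and 0 were lower, beside 4.26%. The SNHG9 interval includes no difference.

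Against exercise alone, the combination had lower levels in 21 members and higher levels in 5, and the median log2 ratio was -0.28, a median fold of 0.822, beside 52.2% of all genes lower. No member was past 2-fold (0 higher beside 2.92% and 0 lower beside 3.06%). At 1.5-fold, SNHG31 was the 1 higher, at 515 against 336 reads and a fold of 1.62 (1.41 to 1.86), beside 7.66% of genes. SNHG4 was the 1 lower, at 637 against 1077 reads and a fold of 0.624 (0.565 to 0.689), beside 8.33%. SNHG1 and SNHG4, both at their highest in the exercise library, had log2 ratios of -0.52 and -0.68 in this comparison.

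The small RNAs inside the hosts were lower as well in the irradiated libraries. A total of 131 small RNA genes were listed at positions that overlap 26 of the SNHG genes, 83 of them in SNHG14 and 48 elsewhere. Strand was not checked for these pairs. Of the small RNA genes, 26 had a mean count of at least 20. With radiation 20 of the 26 were below control, with a median log2 ratio of -0.31. In the combination 20 were below and 5 above, with a median of -0.42, and SNORD52 was level with control after rounding. The 26 are not independent, since 8 lie in SNHG1 and 3 in SNHG29. Under exercise 14 were below, with a median of -0.02. In 12 of the 26 both irradiated libraries lay below both others and in 1 above, beside 27.6% and 26.2% of all compared genes. Both exercised libraries lay below both others in 5 and above in 4, beside 13.2% and 11.6%. The libraries were selected for polyA tails, which mature snoRNAs lack. These reads therefore come from whatever RNA over the snoRNA interval was captured, and they can also count in the host.

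The clearest set is SNHG1, with 8 snoRNA genes. SNORD31 had 139 reads in control, 112 under exercise, 76 under radiation and 65 in the combination. SNORD22 had 143, 106, 105 and 91 reads, and SNORD29 had 97, 98, 75 and 55. Summed over the 8, the reads were 629 in control, 603 under exercise, 456 under radiation and 361 in the combination, or 28.3%, 24.1%, 24.6% and 21.9% of the SNHG1 count. The combination library held the lowest sum.

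With these reads taken off, SNHG1 kept 1595 reads in control, 1895 under exercise, 1395 under radiation and 1285 in the combination, log2 ratios of 0.30, -0.16 and -0.19 against control. The order of the libraries was the same as for the whole span, with smaller differences in the irradiated ones. SNHG12 had a similar share, with 21.6% to 29.3% of its reads in 4 small RNA genes. Taking hosted reads off every member left 25 to compare, of which 20 were below control with radiation, at a median log2 ratio of -0.173. Of the hosted genes, SNORD48 in SNHG32 had 30, 24, 14 and 12 reads and SNORA9 in SNHG15 had 21, 37, 17 and 9 reads, and these were the 2 of 26 at least 2-fold below control in the combination, beside 1.77% of all compared genes. SNORD48 was also the 1 past 2-fold lower with radiation, beside 0.897%. In the other direction, SCARNA15 in SNHG21 had 16, 36, 24 and 23 reads and was the 1 at least 2-fold above control under exercise, beside 0.83%. These counts of reads are small.

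**Figure D4:**
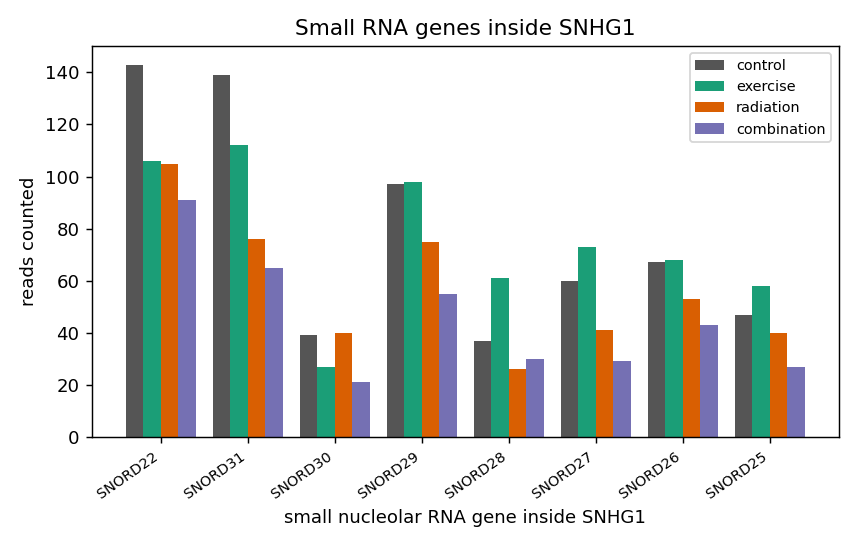
Reads counted over the 8 snoRNA genes inside SNHG1 in each library, with bars starting at 0. The combination library has the lowest bar for 7 of the 8, the exception being SNORD28, where radiation alone is lowest with 26 reads against 30.

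The TOP tract did not mark the members with the lower ratios. The 10 compared members with the tract had a median log2 ratio of 0.00 under exercise, -0.15 with radiation and -0.06 in the combination, and 8 of the 10 were below control in each irradiated library. The 12 without it had medians of 0.06, -0.27 and -0.23, with 10 of 12 below control with radiation and 11 of 12 in the combination. The 4 without a start window had medians of -0.01, -0.48 and -0.44, and SNHG9 and SNHG25 are among them. The ranges of both tract groups overlapped, from -0.29 to 1.06 with the tract and from -0.46 to 0.22 without it under radiation.

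Genes related to the family by function were read beside it, all against the same control library. The lists below share EEF2, RACK1, NOP56, DKC1, NCL, NPM1 and SESN1, so their medians are not independent of each other. The 79 ribosomal protein genes, the best known TOP genes, had medians of -0.03 under exercise, -0.16 with radiation and -0.08 in the combination, with 70 and 61 of the 79 below control in the irradiated libraries. The 20 other TOP genes had medians of 0.00, -0.18 and -0.11, with 17 of 20 below control in both. EEF2, the translocation factor of translation, had 45437 reads in control, 41908 under exercise, 37903 under radiation and 34973 in the combination. CCNI, the highest of these 20, had log2 ratios of 0.01 with radiation and 0.22 in the combination. The medians of both lists were thus below 0 in the irradiated libraries, like that of the SNHG genes. They differed in the combination against radiation alone. There 64 of the 79 and 14 of the 20 were higher, with medians of 0.10 and 0.08, beside 9 of 26 SNHG genes and 50.2% of all genes. Single ribosomal protein genes went further, and RPS29 had 3216 reads in control, 1271 under exercise, 1957 under radiation and 1603 in the combination. Others were above control in both irradiated libraries, with log2 ratios of 0.23 and 0.40 for RPS19 and 0.04 and 0.49 for RPS21.

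Protein-coding snoRNA hosts, 21 genes, had medians of 0.06, -0.16 and -0.13, with 19 and 16 of the 21 below control in the irradiated libraries. The 5 other noncoding hosts had medians of 0.05, -0.02 and -0.11, closer to control in the irradiated libraries, though single genes varied. GAS5, a growth-arrest RNA that hosts many snoRNAs, had 1468 reads in control, 1804 under exercise, 1294 under radiation and 1249 in the combination, under exercise highest. DANCR had 850, 949, 843 and 911 reads, and EPB41L4A-AS1 had 675, 571, 552 and 506. MEG8 departed most with radiation, at 80, 76, 125 and 68 reads and log2 ratios of -0.03, 0.68 and -0.11.

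Of the proteins that build snoRNA particles, 14 of 16 genes were below control with radiation and 13 of 16 in the combination, with medians of -0.14 and -0.18. FBL, the methyltransferase of box C/D particles, had 3349 reads in control, 3494 under exercise, 2382 under radiation and 2264 in the combination. NOP58, a core protein of the same particles, had 1522, 1447, 1053 and 1122. Both had their lower counts in the irradiated libraries, with log2 ratios of -0.45 and -0.44 for FBL and -0.49 and -0.31 for NOP58. The 2 highest genes of this list went the other way, with 0.31 and 0.23 for RUVBL1 and 0.14 and 0.22 for NOP10.

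The 20 genes of the MYC and ribosome biogenesis list had medians of 0.06 under exercise, -0.26 with radiation and -0.24 in the combination, close to those of the SNHG genes, with 19 and 18 of 20 below control in the irradiated libraries. CAD, the first enzyme of pyrimidine synthesis and a MYC target, had log2 ratios of 0.10, -0.52 and -0.61. MAX, the highest of the list in the combination, had -0.02, 0.12 and 0.18. The 15 nonsense-mediated decay genes were near control, with medians of 0.05, -0.03 and -0.05. The 16 genes that control TOP translation had medians of 0.02, -0.01 and 0.01. Of these, 2 were over 2-fold higher in both irradiated libraries, the p53-responsive mTORC1 inhibitors SESN1 and SESN2. Shares of all compared genes past 2-fold higher were 1.89% with radiation and 2.27% in the combination. SESN1 had 375 reads in control, 319 under exercise, 902 under radiation and 956 in the combination.

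Cell growth markers separated the libraries far more than the SNHG genes did. The 14 proliferation genes had medians of 0.61 under exercise, -0.81 with radiation and -0.70 in the combination. The 8 p53 arrest genes, SESN1 again among them, had medians of 0.15, 1.52 and 1.61. In each irradiated library 8 of the 8 were over 2-fold higher, beside 1.89% of all compared genes with radiation and 2.27% in the combination. CDKN1A, the p21 inhibitor of the cell cycle, had 2164 reads in control, 2752 under exercise, 11361 under radiation and 13349 in the combination. Whether the lower SNHG levels go with slower growth was not tested.

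**Figure D5:**
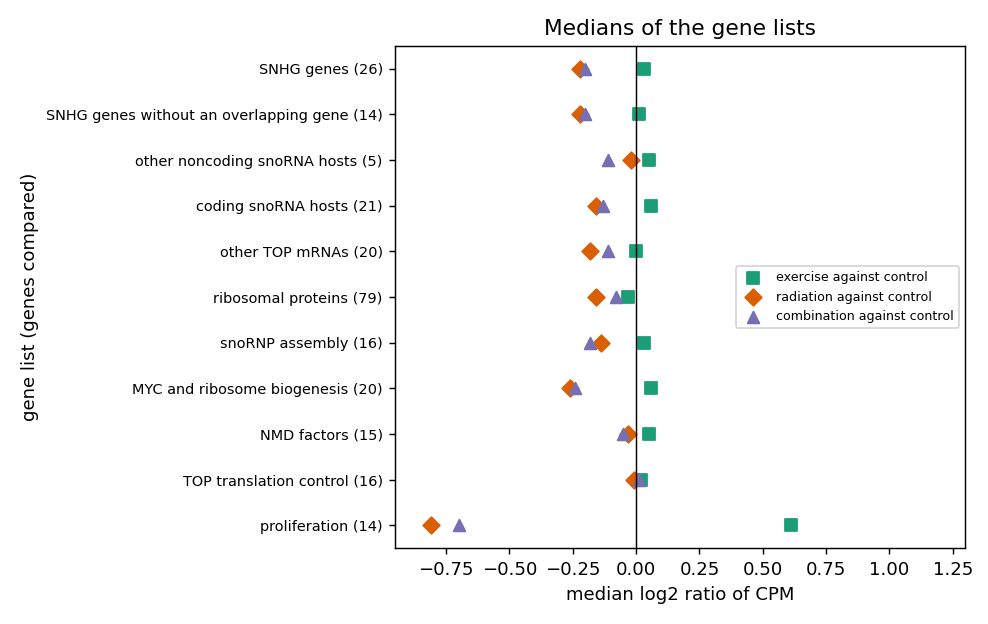
Median log2 ratio of CPM of the SNHG genes and of 9 related gene lists against the shared control library, with the number of genes compared in brackets. The SNHG, ribosomal protein, snoRNP assembly and MYC lists lie left of 0 in both irradiated libraries at -0.26 to -0.08, and the proliferation genes lie much further out, at -0.81 and -0.70.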

How the data were processed

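PolyA-selected RNA was made into TruSeq stranded libraries and read as pairs of 100 nt. The authors trimmed reads (cutadapt in the submitters' processing notes), aligned them to GRCh38 with Bowtie2 2.3.4.1 and counted them with featureCounts 1.6.0. They deposited read counts per gene, not normalized, and FPKM values whose implied length is the whole gene span for most SNHG genes. How strand and mouse reads were handled in counting, and whether tumors were pooled, is not given in the sources used here. Bowtie2 does not split reads across introns and can lose those that cross an exon junction.

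Counts were scaled by TMM on genes whose mean count was 20 or more (edgeR 4.0.16, R 4.3.3), and log2 ratios of CPM were taken with a prior of 0.5 counts. Called means past 2-fold, the threshold of the study, or 1.5-fold. No test was run, with 1 library per group. Overlaps and hosted genes were taken by position from RefSeq gene models of GRCh38, without a strand rule. The code for the ratios, their intervals and the fold thresholds was checked on simulated counts with known folds. Further steps used matplotlib 3.10.9, scipy 1.17.1, pandas 2.3.3 and numpy 2.4.6 in python 3.11.15. The members, the 15 gene lists and the rules were chosen with earlier results of these data known. Genes named with values are the 10 most read SNHG genes, those past 1.5-fold, those that overlap another gene, and genes from the lists. From each list, these are part of its 2 highest and 2 lowest genes. Every other compared SNHG gene is accounted for by its log2 ratio. SNHG8, MEG8, CDH5, KDR, VWF and the individual snoRNAs, each outside this rule, were chosen as examples once their values were known. Alternatives were priors of 2 and 0.1, no minimum count or 100, median-of-ratios (DESeq2 1.42.0) and total-count scaling, FPKM with 0.1 added, short RNA and mitochondrial genes left out of library size, and the 1.5-fold threshold; 2 more were chosen after seeing the data, members without an overlapping gene and hosted small RNA reads taken off, alone and together.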

Additional observations from a re-analysis of the deposited data

Results flagged for a closer look

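The ratios for exercise without and with radiation had opposite signs in 15 of the 26 SNHG genes, or 57.7%, beside 49.6% of all compared genes. In 2 of these, SNHG4 and SNHG16, the 95% counting interval of each ratio also lay wholly on its own side of no difference, 7.69% of the members beside 9.17% of all genes, and these are listed here. The difference between the contrasts was not tested. SNHG4 had a log2 ratio of 0.22 for exercise against control and -0.31 for the combination against radiation alone, from 957 and 1077 reads without radiation and 841 and 637 with it. SNHG16 had -0.09 for exercise against control and 0.16 for the combination against radiation alone, from 2663 and 2417 reads without radiation and 2589 and 2719 with it. SNHG4 lies within MATR3, and SNHG16 overlaps no gene other than small RNAs. With 1 library for each group, the spread between tumors is unknown.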

How the results depend on the processing

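The median log2 ratio of the SNHG genes ranged over the 10 alternatives from -0.289 to -0.173 with radiation against control, from -0.279 to -0.161 in the combination against control, from -0.323 to -0.227 in the combination against exercise, from -0.03 to 0.0 in the combination against radiation and from -0.007 to 0.036 with exercise against control. Over all genes the median log2 ratio against control under total-count scaling was -0.033 for exercise, -0.07 for radiation and -0.09 for the combination, beside 0.002, 0.001 and -0.015 under TMM. Counts past 2-fold rest on 1 or 2 genes. With radiation against control, the 1 lower member became 0 with a prior of 2, with a minimum of 100 and with hosted reads taken off, and 2 at 1.5-fold. The 1 higher member became 0 with total-count scaling, with FPKM plus 0.1 and among members without an overlapping gene, since it is SNHG31, in radiation and in the combination alike. With no minimum count, the combination had 2 members higher than control, 1 higher than radiation and 1 higher than exercise, where the added gene has 1 read in the combination and 0 elsewhere. At 1.5-fold the combination had 2 lower than control, 1 higher than radiation, and 1 higher and 1 lower than exercise. SNHG31 on FPKM plus 0.1 had log2 ratios of 0.41 with radiation, 0.41 in the combination and 0.29 in the combination against exercise, where the added 0.1 exceeds or is close to its FPKM. A further 143 family values stayed within the limits set for a shift. The counts give the error of reading, not of tumors, and few reads limit SNHG9 most.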
